A study of Peromyscus maniculatus and Peromyscus polionotus and Peromyscus maniculatus x Peromyscus polionotus with 18 samples.

Results

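Apolipoproteins are the protein part of the lipid particles that move cholesterol and phospholipid between cells. The 6 genes described here are Apoe, Apod, Clu (also called apolipoprotein J), Apoa1, Apoa4 and Apoc1, taken by symbol, whatever its case, from tables of 20732 rows (parental species) and 11928 rows (F1 hybrids). All 6 were in the first table and 4 of them (Apoe, Apod, Clu and Apoc1) in the second. Apoa1 and Apoa4 were not analysed here in the hybrids. Apoa4 was picked on its species difference in these libraries, so its species values are a description with no test.

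RNA of whole brains was measured in adult males of the deer mouse *Peromyscus maniculatus*, of the oldfield mouse *P. polionotus* and of F1 hybrids of both. Brains were collected directly after a test trial, in which the animal had either burrowed in a large sand-filled enclosure or served as a control. This gave 6 groups of 3 libraries, and all animals were about 50 to 80 days old, had been through earlier acclimation trials in the enclosures and were allotted to a trial at random. The study asks which brain genes differ between burrowing species, during burrowing, and between the parental alleles inside a hybrid. The labels speak of individual animals but do not tie a library to an animal in words, so p-values measure the spread between these libraries. The labels write the cross with *P. maniculatus* first, and the sources used here do not say which species was the mother.

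In the brain, lipid particles are made locally, since plasma lipoproteins hardly cross the blood-brain barrier. Astrocytes release Apoe on particles that the transporter Abca1 loads with lipid, and neurons take them up through receptors of the low-density lipoprotein receptor family. Clu is a secreted chaperone that travels on similar particles, Apod is a small lipid-binding lipocalin of glia, and Apoc1 is a small protein, encoded beside Apoe, that restrains particle uptake and lipoprotein lipase. Apoa1, the main protein of plasma high-density lipoprotein, and Apoa4, best known from the intestine and from satiety, are made chiefly outside the brain.

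Parental values are TPM, transcript abundance per length scaled to a common library total, so levels can be set side by side between genes. Hybrid values are counts of reads assigned to the maniculatus or the polionotus allele, 11415175 to 53906964 per animal, with 52.6% to 53.1% of them on the polionotus allele. On a second principal component holding 7.47% of the variance, maniculatus control 3, polionotus control 2 and polionotus burrowing 3 scored 12.6 to 20.5 and the other 9 parental libraries -13.2 to 1.6. Species and trial differences were also computed without these libraries. In a whole brain, fewer cells of a type and less RNA per cell cannot be told apart.

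The brains of the species held these transcripts in different proportions. Apoe, Clu and Apod were higher in *P. polionotus*, and Apoc1 and Apoa1 were higher in *P. maniculatus*; each of these 5 passed the test, and Apoa4 was also higher in *P. maniculatus*. For none of the 6 genes did the ranges of the species overlap. The share of all genes with separated ranges was not counted, and Apoa4 was picked on its species difference. A called species difference was common, with 32.6% of all genes higher and 19.8% lower in *P. polionotus*. The 6 genes together summed to 3226 to 4045 TPM in maniculatus libraries and 4757 to 6514 TPM in polionotus libraries. Apoe made up 50.6% to 62.4% of that sum in maniculatus and 65.1% to 76.9% in polionotus libraries.

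**Figure D1:**
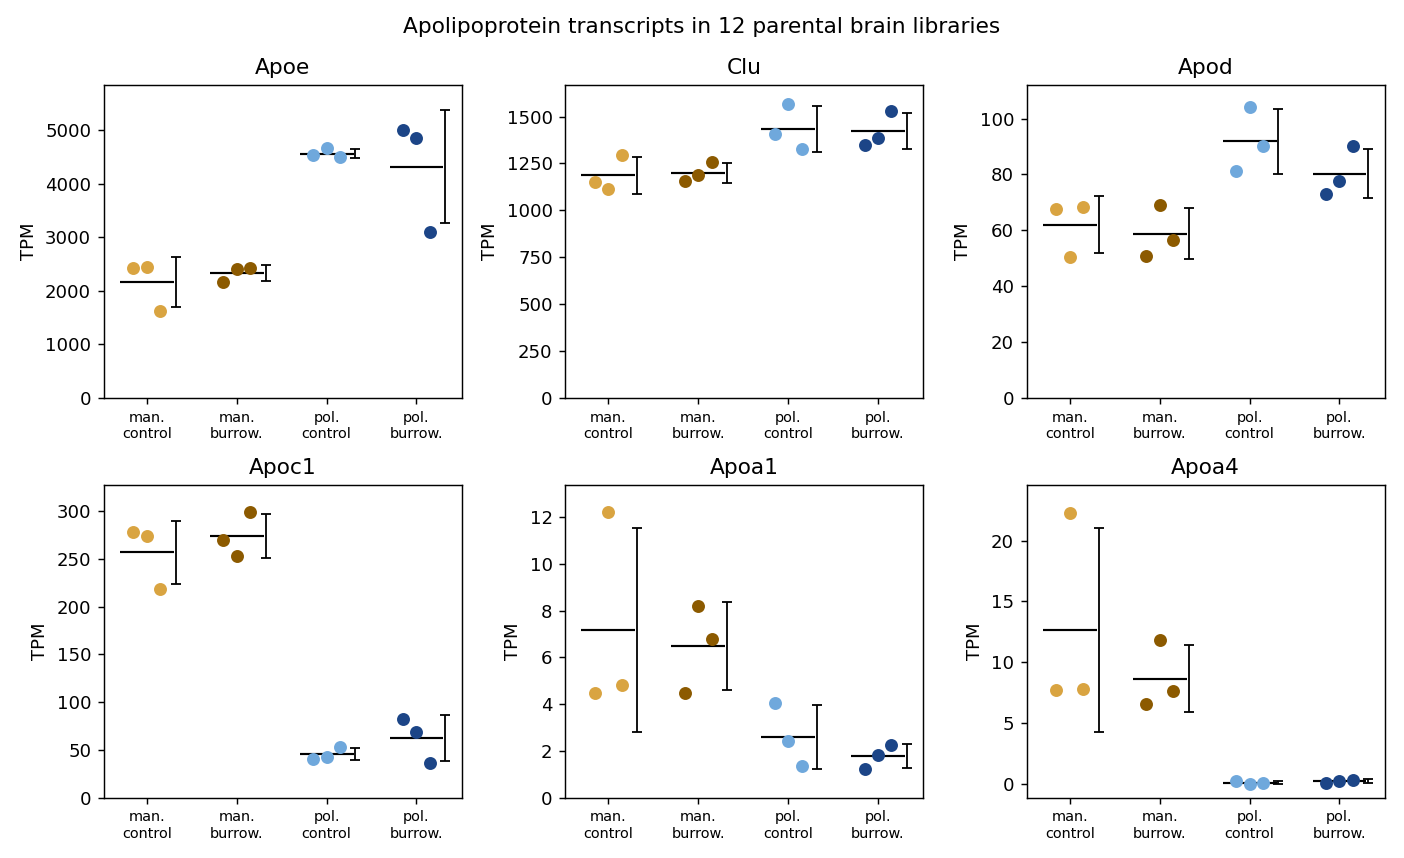
TPM of each apolipoprotein (y axis, linear, a separate scale per gene) in the 3 libraries of each parental group (points; maniculatus in browns, polionotus in blues), with the group mean (line) and its SD (error bar). Apoe, Clu and Apod sit higher in polionotus and Apoc1, Apoa1 and Apoa4 higher in maniculatus, with no overlap between the species; control and burrowing points of a species lie beside each other.

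Apoe, the main lipid carrier made by astrocytes, was the most abundant of the 6 in every parental library. It stood at 2425, 2442 and 1631 TPM in the maniculatus control libraries and at 2168, 2411 and 2420.0 TPM after burrowing. In *P. polionotus* it stood at 4536, 4663 and 4493 TPM in the control libraries and at 5008, 4854 and 3099 TPM after burrowing. The lowest polionotus library thus lay above the highest maniculatus library. Among all genes of a library, Apoe ranked between 22 and 38 from the top in maniculatus brains and between 4 and 14 in polionotus brains. The species means were 4442 ± 686 and 2249.6 ± 320.2 TPM (SD, n = 6 libraries each), a ratio of 1.97. Averaged over both trials the difference on the log2(TPM + 1) scale was 0.98 (SE 0.13, limma, Benjamini-Hochberg adjusted p = 0.000127). Higher values in *P. polionotus* were called for 32.6% of all 14366 genes tested and lower values for 19.8%, so a called species difference is common in these data.

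The lowest Apoe library of each species was among the 3 that stood apart on the second component: maniculatus control 3 at 1631 TPM and polionotus burrowing 3 at 3099 TPM. The third of these, polionotus control 2, had 4663 TPM of Apoe, inside the range of the other polionotus libraries. Without these 3 libraries the species difference (limma) was 0.99 for Apoe (adjusted p = 4.35e-06), 0.23 for Clu (0.00177), 0.45 for Apod (0.0117), -2.19 for Apoc1 (3.91e-06) and -1.42 for Apoa1 (0.00885).

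Clu was at 1150.2, 1112 and 1295 TPM in maniculatus control libraries and at 1155, 1187 and 1255 TPM after burrowing. In *P. polionotus* it was at 1405, 1565 and 1329 TPM in the control libraries and at 1349, 1387 and 1529 TPM after burrowing. The ranges lay close to each other, with 1295 TPM the highest maniculatus value and 1329 TPM the lowest polionotus value. Means were 1428 ± 97.3 and 1192 ± 69.4 TPM (SD, n = 6 libraries each), a ratio of 1.20 and the smallest species difference of the 6 genes (log2 0.26, SE 0.06, limma, adjusted p = 0.00390). Its spread between libraries was also the smallest of the 6, with coefficients of variation of 5.82% over maniculatus and 6.82% over polionotus libraries.

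Apod, the glial lipocalin, was at 67.7, 50.4 and 68.2 TPM in maniculatus control libraries and at 50.9, 69.0 and 56.7 TPM after burrowing. In *P. polionotus* it was at 81.2, 104 and 90.3 TPM in the control libraries and at 73.1, 77.7 and 90.1 TPM after burrowing. Every polionotus library was above every maniculatus library, by 73.1 against 69.0 TPM at the closest. Means were 86.0 ± 11.0 and 60.5 ± 8.86 TPM (SD, n = 6 libraries each), a ratio of 1.42 (log2 0.50, SE 0.10, limma, adjusted p = 0.00195).

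Apoc1, the small apolipoprotein encoded next to Apoe, ran the other way. It was at 278, 274 and 219 TPM in maniculatus control libraries and at 269.6, 253 and 299 TPM after burrowing. In *P. polionotus* it was at 40.9, 43.1 and 53.0 TPM in the control libraries and at 82.7, 68.5 and 36.0 TPM after burrowing. The species were far apart, and the polionotus burrowing libraries held both the highest and the lowest value of that species. Means were 54.0 ± 18.2 and 265 ± 27.0 TPM (SD, n = 6 libraries each), 4.91 times higher in *P. maniculatus* (log2 -2.33, SE 0.17, limma, adjusted p = 1.52e-06).

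Apoa1 was low in every brain. It was at 4.47, 12.2 and 4.82 TPM in maniculatus control libraries and at 4.47, 8.20 and 6.78 TPM after burrowing, against 4.07, 2.41 and 1.35 TPM in polionotus control libraries and 1.25, 1.85 and 2.25 TPM after burrowing. The highest polionotus value, 4.07 TPM, came close to the lowest maniculatus value, 4.47 TPM. Means were 2.19 ± 1.03 and 6.82 ± 3.03 TPM (SD, n = 6 libraries each), 3.11 times higher in *P. maniculatus* (log2 -1.27, SE 0.25, limma, adjusted p = 0.00168).

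Apoa4 was at 7.74, 22.3 and 7.84 TPM in maniculatus control libraries and at 6.55, 11.8 and 7.65 TPM after burrowing. In *P. polionotus* it was at 0.254, 0 and 0.122 TPM in the control libraries and at 0.112, 0.266 and 0.381 TPM after burrowing. All 6 polionotus libraries were under 1 TPM, and polionotus control 2 listed the gene at 0, so Apoa4 passed the filter on low values (a mean of at least 1 TPM) only through its level in *P. maniculatus*. The means of 0.189 ± 0.137 and 10.6 ± 5.97 TPM (SD, n = 6 libraries each) gave a ratio of 56.3 and a log2(TPM + 1) difference of -3.18, which chose the gene and is not tested. With a pseudocount of 0.1 this difference was -5.24 and with 5 it was -1.52, so its size depends on how values near 0 are handled.

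Maniculatus control 2 was the highest of all 12 libraries for both Apoa1 (12.2 TPM) and Apoa4 (22.3 TPM). These genes lie close together in the RefSeq gene order, with Apoc3 between them. Within *P. maniculatus* their log2(TPM + 1) values had a Pearson correlation of 0.93 over 6 libraries, and within *P. polionotus* 0.29. In *P. polionotus* Apoa4 was at 0 to 0.381 TPM, too near 0 for its correlation to be set against that of *P. maniculatus*. Both correlations are descriptions over few libraries that share their normalization, with the libraries that stood apart included.

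In *P. maniculatus* the order of mean levels was Apoe, Clu, Apoc1, Apod, Apoa4 and Apoa1. Only Apoa4 (6.55 to 22.3 TPM) and Apoa1 (4.47 to 12.2 TPM) overlapped in range. In *P. polionotus* the order was Apoe, Clu, Apod, Apoc1, Apoa1 and Apoa4, and only Apod (73.1 to 104 TPM) and Apoc1 (36.0 to 82.7 TPM) overlapped. Apod and Apoc1, and likewise Apoa1 and Apoa4, thus stood in opposite order by mean in the 2 species. Apoa4 was picked on its species difference, so the changed order of Apoa1 and Apoa4 is no separate result.

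Within either trial the same directions were seen. In control-trial brains, the 5 tested genes were called (limma): Apoe by 1.10 (SE 0.19, adjusted p = 0.00114), Apod by 0.56 (SE 0.15, 0.0115), Clu by 0.27 (SE 0.08, 0.0248), Apoa1 by -1.12 (SE 0.36, 0.0290) and Apoc1 by -2.47 (SE 0.24, 3.20e-05). In this trial the called share of all genes was 26.8% for higher and 12.9% for lower levels in *P. polionotus*. In burrowing-trial brains the 5 were called as well: Apoe by 0.86 (SE 0.19, 0.00531), Apod by 0.45 (SE 0.15, 0.0364), Clu by 0.24 (SE 0.08, 0.0448), Apoa1 by -1.41 (SE 0.36, 0.0114) and Apoc1 by -2.19 (SE 0.24, 7.45e-05). Of all genes, 20% were called higher and 14.1% lower there. The single-trial calls of Clu were not firm: quantile normalization gave 0.16 (adjusted p = 0.111) in the control and 0.19 (0.0664) in the burrowing trial. Clu was also lost in the control trial without maniculatus control 1 (0.0749), maniculatus control 2 (0.0939) or polionotus control 2 (0.0735), and in the burrowing trial without any 1 of the 6 parental burrowing libraries, maniculatus control 1 or 2, or polionotus control 1 (adjusted p from 0.0504 to 0.142). Apoa1 in the control trial was lost without maniculatus control 2 (-0.71, adjusted p = 0.102), polionotus control 2 (0.0676) or polionotus control 3 (-0.85, 0.107), and without the 3 libraries that stood apart (-1.30, 0.0727). Apod in the burrowing trial was lost without maniculatus burrowing 1 (0.35, 0.130) or 3 (0.43, 0.0935), polionotus burrowing 2 (0.47, 0.0725) or 3 (0.36, 0.121), and without the 3 that stood apart (0.36, 0.0988). The Apoa4 differences of -3.44 and -2.92 are again descriptions.

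No apolipoprotein tested was called between burrowing and control brains: 6 were tested in *P. maniculatus* and 5 in *P. polionotus*, where Apoa4 lay too near 0 for a test to bear on it. In *P. maniculatus* the log2 differences, burrowing minus control, were 0.13 for Apoe, 0.02 for Clu, -0.07 for Apod, 0.09 for Apoc1, -0.03 for Apoa1 and -0.37 for Apoa4 (limma, adjusted p = 1 for each). Over all genes, 0.00696% (1 gene) were called and 291 had an unadjusted p under 0.05. The 95% intervals of the limma fit ran from -0.29 to 0.55 for Apoe, from -0.17 to 0.20 for Clu and from -1.10 to 0.36 for Apoa4. The Apoa4 interval can be too narrow, since its spread was estimated together with polionotus libraries near 0. Changes inside these intervals are not excluded. The intervals are not adjusted over genes, as the calls were, so changes beyond them could also have been missed.

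In *P. polionotus* the trial differences were -0.11 for Apoe, -0.01 for Clu, -0.19 for Apod, 0.37 for Apoc1 and -0.32 for Apoa1 (limma, adjusted p = 0.998 for each). No gene of the genome-wide table was called (0%), with 446 at an unadjusted p under 0.05. The 95% intervals ran from -1.12 to 0.47 for Apoa1 and from -0.17 to 0.91 for Apoc1. Apoa4, at 0 to 0.381 TPM in this species, is given no test. Apoc1 in burrowing libraries was at 82.7, 68.5 and 36.0 TPM, so the third library lay below all 3 control libraries. Leaving out a library moved the Apoc1 difference between 0.13 (without burrowing 1) and 0.72 (without burrowing 3), and it was 0.68 without the 3 libraries that stood apart. The Apoa1 difference moved between -0.04 (without control 1) and -0.60 (without control 3).

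The trial difference itself was compared between the species through an interaction term. It was -0.24 (95% interval -0.83 to 0.35) for Apoe, -0.03 (-0.29 to 0.23) for Clu, -0.11 (-0.57 to 0.34) for Apod, 0.28 (-0.49 to 1.04) for Apoc1 and -0.29 (-1.41 to 0.83) for Apoa1, with Apoa4 left out for its level near 0 in *P. polionotus*. Without the 3 libraries that stood apart, Apoe was at 0.19 and Apoc1 at 0.70. None of the 5 was called (limma, adjusted p from 0.992 to 0.993), as for 0% of all genes, of which 415 had an unadjusted p under 0.05.

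Both alleles of a hybrid share a cell and its signals, so their ratio compares the parental copies in a common setting. Apoe, Apod and Apoc1 passed the allele test in the 6 hybrid animals and Clu did not. For Apod the polionotus copy gave more counts, as the polionotus brains did; for Apoe and Apoc1 the allele difference had the opposite sign to the species difference. The polionotus allele was called higher for 34.2% of 11928 genes and lower for 21.5%, so calls are frequent here too. The parental and hybrid tables were made separately, and the difference between a species and an allele value was not tested.

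**Figure D2:**
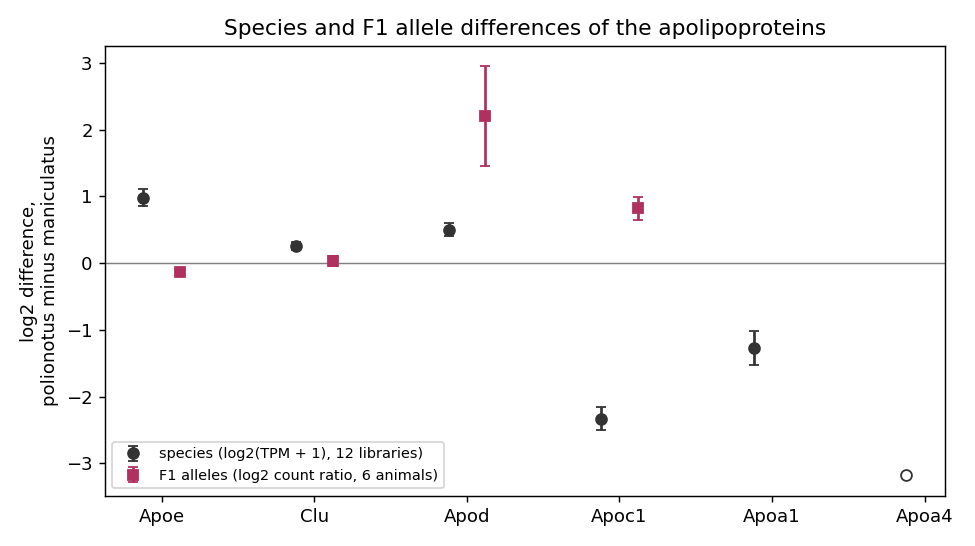
Log2 differences, polionotus minus maniculatus (y axis), per apolipoprotein: circles are species differences on log2(TPM + 1) over 12 libraries and squares are F1 allele ratios over 6 animals; bars are SE, and the open circle of Apoa4 has no test or error. Apoe is at 0.98 between species and -0.14 between alleles, Apoc1 at -2.33 and 0.82, Apod at 0.50 and 2.20 and Clu at 0.26 and 0.03.

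Apoe counts lay on the polionotus allele by 47.7%, 48.0% and 47.3% in the control hybrids and by 47.3%, 46.8% and 48.8% in the burrowing hybrids. Every animal was under 50%, and the spread was narrow, 2 points from lowest to highest; 94.3% of the 9354 genes with enough counts to compare spread at least as widely. These shares rest on 5523 to 16690 counts, and the Wilson 95% interval (counting error only) was 46.4% to 49.0% in control 1, the least deeply counted. The allele difference was -0.14 (SE 0.02, edgeR quasi-likelihood test with the animal as block, adjusted p = 0.00274), beside the species difference of 0.98. With each allele column scaled to its own total and TMM factor it was -0.32 (edgeR, adjusted p = 0.000245).

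The allele-assigned counts of Apoe were far less even across hybrids than its allele share. CPM here are counts of both alleles scaled to a common total of allele-assigned counts per animal. For Apoe they were 484, 829 and 309.6 in the control and 592, 204 and 297 in the burrowing animals. These lay below the Clu values of 1057 to 1788 CPM, whereas Apoe was above Clu in every parental library. What part of the Apoe reads could be assigned to an allele is not known, so these values need not follow its full level. Control and burrowing values overlapped, and the trial difference was -0.61 (SE 0.48, edgeR, adjusted p = 0.965). It lay between -1.16 (without burrowing 1) and -0.12 (without control 2) when an animal was left out. Across animals in which the assigned counts ranged from 204 to 829 CPM, the polionotus share stayed between 46.8% and 48.8%.

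Clu counts lay on the polionotus allele by 51.9%, 51.5% and 44.3% in control hybrids and by 51.7%, 51.6% and 51.8% in burrowing hybrids. The animals other than control 3 thus fell within 51.5% to 51.9%, and control 3, with the most counts (57464), had 44.3% (Wilson 95% interval 43.9% to 44.7%). The allele difference was 0.03 (SE 0.07, edgeR, adjusted p = 0.745). Without control 3 it was 0.10 and passed (adjusted p = 0.00891). The call depends on the scaling, as 52.6% to 53.1% of all counts lay on the polionotus allele. With each allele column scaled to its own total and TMM factor, the difference over all animals was -0.15 (edgeR, adjusted p = 0.103). Of the genes next to Clu, Scara3, a scavenger receptor family member, was also lowest in control 3 (41.0% against 48.7% to 52.8% in the others), while Ccdc25 was lowest in control 1 (26.4%). On the other side of Clu, Ephx2 (58.0%) and Ptk2b (47.2%) were at their highest in control 3, Ephx2 in a tie with burrowing 1. Farther on, the tubulin-binding gene Stmn4 was at 46.2% in control 3 and at 19.3% to 23.0% in the others. Clu totals were 1788, 1617 and 1066 CPM in the control and 1386, 1057 and 1414 in the burrowing animals, which overlap (trial difference -0.24, SE 0.24, edgeR, adjusted p = 0.965). Leaving out an animal gave -0.45 (without control 3) to -0.08 (without control 1).

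Apoc1 had few counts, 101 to 438 per animal. The polionotus allele held 69.1%, 54.5% and 70.3% of them in control hybrids and 54.6%, 64.8% and 67.9% in burrowing hybrids, above 50% in all 6. In control 2 and burrowing 1 the Wilson 95% intervals, 44.8% to 63.8% and 47.2% to 61.8%, included 50%. The allele difference was 0.82 (SE 0.17, edgeR, adjusted p = 0.00669), against a species difference of -2.33. Totals of 9.64, 8.02 and 8.13 CPM in the control and 6.62, 9.90 and 8.57 in the burrowing animals overlapped (trial difference -0.06, SE 0.21, edgeR, adjusted p = 0.976). Apod had 61.5 to 129 CPM, though parental means were 265 TPM for Apoc1 and 60.5 TPM for Apod in *P. maniculatus*, and 54.0 and 86.0 TPM in *P. polionotus*. CPM are not scaled to gene length, and what part of the Apoc1 reads could be assigned to an allele is not known. The allele shares of Apoc1 need not stand for all its reads.

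Apod fell into widely separated shares. The polionotus allele held 61.4%, 94.9% and 93.2% of its counts in the control hybrids and 93.2%, 62.6% and 56.2% in the burrowing hybrids. Control 2, control 3 and burrowing 1 thus lay above 93%, and the other 3 animals at 56.2% to 62.6%, with both trials in each set. The Wilson 95% intervals, 93.3% to 96.2% in control 2 and 54.4% to 58.0% in burrowing 3, are narrow beside this gap of over 30 points. Only 5.93% of the 9354 genes compared spread as widely between animals. The allele difference was 2.20 (SE 0.75, edgeR, adjusted p = 0.0451), and it did not pass without control 2, control 3 or burrowing 1 (adjusted p = 0.102, 0.111 and 0.109).

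**Figure D3:**
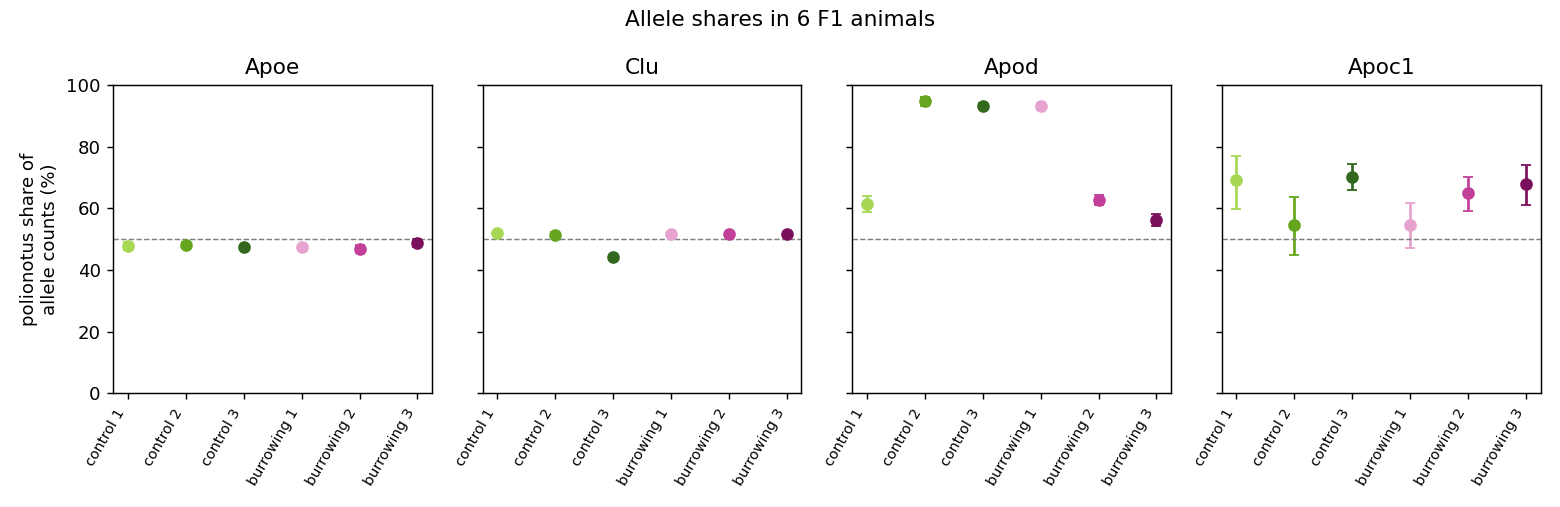
Polionotus share of allele-assigned counts (y axis, percent) in each F1 animal (x axis) for the 4 apolipoproteins counted by allele; bars are Wilson 95% intervals and the dashed line is 50%. Apoe stays between 46.8% and 48.8%, Clu is near 52% except in control 3 (44.3%), Apod is near 60% or above 93%, and Apoc1 lies between 54.5% and 70.3%.

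Counted separately, the maniculatus copy of Apod carried this spread. It gave 46.8, 3.57 and 4.19 CPM in the control hybrids and 4.49, 46.2 and 56.7 in the burrowing hybrids. The polionotus copy gave 74.4, 66.8 and 57.3, and 61.8, 77.4 and 72.7. The maniculatus copy was thus at 3.57 to 4.49 in 3 animals and at 46.2 to 56.7 in the others, while the polionotus copy ranged from 57.3 to 77.4 in all 6. The sum of both copies followed: 121, 70.4 and 61.5 in the control and 66.3, 124 and 129 CPM in the burrowing animals. Because low and high animals occur in both trials, the trial difference of Apod was 0.31 with an SE of 0.33 (edgeR, adjusted p = 0.965), and from 0.11 (without control 3) to 0.67 (without control 1) with an animal left out. The 6 maniculatus parental libraries, at 50.4 to 69.0 TPM, showed no such gap.

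**Figure D4:**
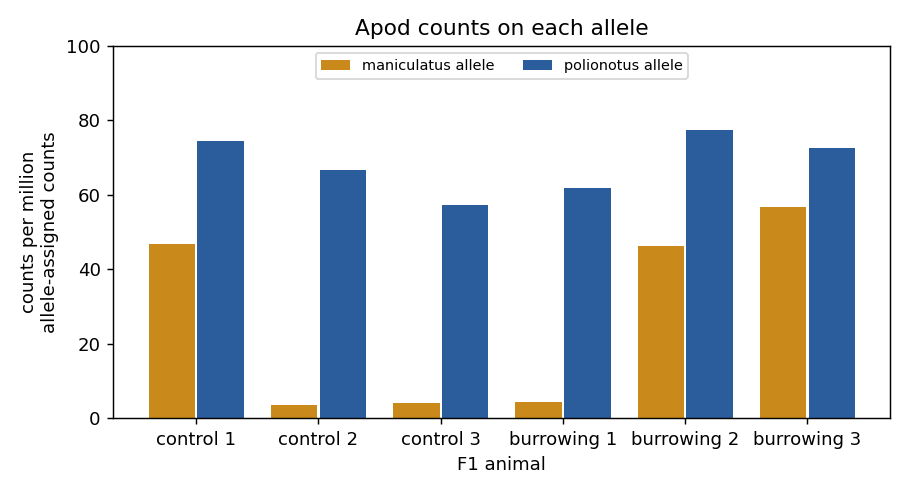
CPM of Apod (y axis, from 0), scaled to all allele-assigned counts of an animal, on the maniculatus allele (ochre bars) and the polionotus allele (blue bars) in each F1 animal (x axis). The maniculatus bars are at 3.57 to 4.49 in control 2, control 3 and burrowing 1 and at 46.2 to 56.7 in the other animals, while the polionotus bars stay between 57.3 and 77.4.

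The same animals stood high for the genes that follow Apod along its chromosome. In the RefSeq gene order, Apod began an unbroken run of 25 counted genes, ending at Umps, in each of which control 2, control 3 and burrowing 1 held the 3 highest polionotus shares. Of all 11928 genes in the table, 5.70% had that pattern, and 0 of the 25 counted genes before Apod did. Bdh1, a ketone body enzyme, had 62.4%, 87.3% and 87.6% in control and 88.8%, 64.5% and 62.5% in burrowing hybrids. Pak2, a kinase, had 43.5%, 98.8% and 98.7%, and 98.8%, 47.1% and 45.4%. The nearest counted gene on the other side, Acap2, stayed between 54.8% and 57.0%, and Kalrn, just past Umps, between 38.7% and 44.7%. This look along the chromosome was added after the shares of Apod had been seen, and it is a description of 6 animals.

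Farther before Apod the reverse split appeared. Masp1, a complement protease, had 92.1%, 49.7% and 40.6% in control and 42.5%, 89.9% and 92.3% in burrowing hybrids, and the somatostatin gene Sst had 84.3%, 50.7% and 50.7%, and 50.1%, 89.1% and 83.9%. There, control 1, burrowing 2 and burrowing 3 had the high shares. Apod was thus the first counted gene of a stretch with its split, and genes with the reverse split lay before it. The sources used here do not say how reads were assigned to an allele or whether all animals carried the same parental sequences, and neither was tested.

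**Figure D5:**
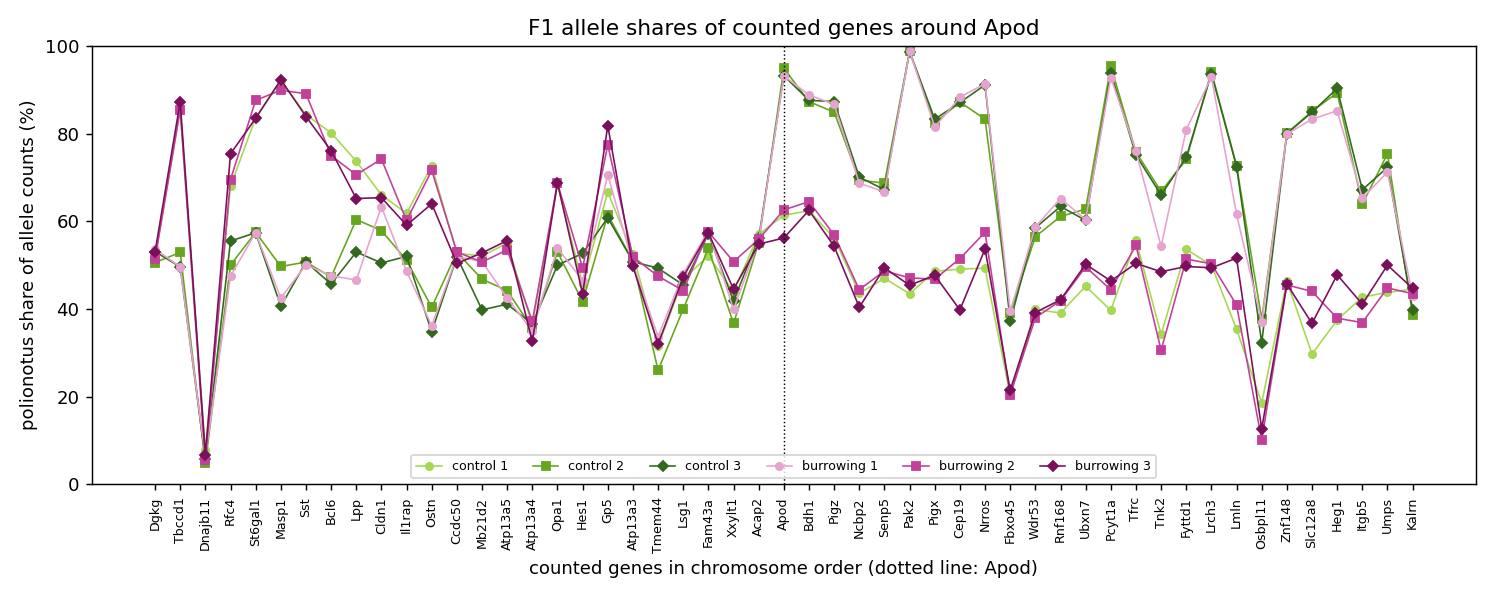
Polionotus share of allele-assigned counts (y axis, percent) of up to 25 counted genes on each side of Apod, in chromosome order (x axis, equally spaced, not to distance), 1 line per F1 animal; the dotted line marks Apod. From Apod to Umps the lines of control 2, control 3 and burrowing 1 run above the other 3, and just before Apod, at Acap2, all 6 lie between 54.8% and 57.0%.

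None of the 4 genes was called for a difference of allele ratio between trials. The interaction was -0.00 (SE 0.05) for Apoe, 0.14 (SE 0.13) for Clu, -1.42 (SE 1.47) for Apod and -0.16 (SE 0.36) for Apoc1 (edgeR, adjusted p = 1 for each). Of all genes counted, 0.226% were called, and 0% for the trial difference of the summed counts, where 90 genes had an unadjusted p under 0.05 and DESeq2 called 2.

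The genes that neighbour Apoe and Apoc1 did not move alike. Apoc4, a minor lipoprotein component next to Apoc1, averaged 14.7 ± 4.13 TPM over the 6 polionotus libraries and 2.43 ± 0.700 TPM over the 6 maniculatus libraries (SD; log2 difference 2.18, SE 0.16, limma, adjusted p = 1.18e-06). Its polionotus allele was higher too, by 1.40 (SE 0.18, edgeR, adjusted p = 0.000849), on 31 to 200 counts per animal. Apoc2, the activator of lipoprotein lipase, ranged from 0.996 to 2.38 TPM in polionotus and from 0.0193 to 0.364 TPM in maniculatus brains. It averaged under 1 TPM and was not tested. Of these 4 cluster genes, Apoe, Apoc1, Apoc4 and Apoc2, Apoc1 alone thus had its higher level in *P. maniculatus*. Tomm40, a mitochondrial import pore gene on the other side of Apoe, differed between species by 0.27 and between alleles by 0.03. The sources used here do not say how reads of such close neighbours were divided between genes.

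Around Apoa1 and Apoa4, the cluster genes Apoc3 and Apoa5 stayed under 1 TPM in all 12 libraries. Apoa5 averaged 0.510 ± 0.0945 TPM in polionotus and 0.0315 ± 0.0773 TPM in maniculatus brains (SD, n = 6 libraries each), opposite in direction to Apoa1 and Apoa4, at values too low for the filter. Zpr1, a zinc finger gene beside Apoa5, was lower in *P. polionotus* by -0.85 on the log2 scale.

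Of 17 other apolipoprotein and apolipoprotein-like genes listed, 7 could be tested between species, with 2 called higher and 2 lower in *P. polionotus* (median log2 difference 0.17, against 0.06 over all genes). Over all genes 32.6% were called higher and 19.8% lower. The higher genes were Apoc4 and Apobr, a receptor for apolipoprotein B particles (0.42, adjusted p = 0.0342). The lower genes were Apof, a plasma regulator of lipid transfer (1.13 ± 0.343 against 4.21 ± 2.05 TPM; -1.21, SE 0.23, limma, adjusted p = 0.00135), and Apool, a mitochondrial membrane protein (-0.36, 0.000527). In the hybrids 4 were tested and 2, Apoc4 and Apobr (0.66, SE 0.20, edgeR, adjusted p = 0.0317), were called higher on the polionotus allele, with none lower, where the shares over all genes were 34.2% and 21.5%.

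Among receptors that take up or sort these particles, 8 of the 19 genes tested stood higher in *P. polionotus* and 2 stood lower (median 0.11; with quantile normalization 7 and 2), beside 32.6% and 19.8% of all genes. The largest called difference was that of Trem2, a microglial receptor that binds Apoe and Clu, at 28.6 ± 2.77 against 9.59 ± 1.98 TPM (SD, n = 6 libraries each; 1.50, SE 0.12, limma, adjusted p = 2.20e-06). Lrp12 (0.35) and Ldlrad3 (0.32), members of the low-density lipoprotein receptor family, were also higher. Vldlr (-0.14) and Lrp10 (-0.19) were lower, by small amounts. Between alleles, 9 of 20 were called higher on the polionotus copy and none lower (median 0.28, edgeR), beside 34.2% and 21.5% of all genes, and nothing particular to receptors is read from these counts. The smallest p was that of Scarb1, the receptor for high-density lipoprotein, at 2.04 (SE 0.09, adjusted p = 7.63e-06), and Lrp12 (0.52) was also among the higher genes. Unlike Lrp12, Scarb1 was not called between species (0.16, SE 0.12, limma, adjusted p = 0.263).

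Of the genes for lipidation and sterol transport, 10 of 23 passed the test with higher and 7 with lower levels in *P. polionotus* (median 0.03; 9 and 9 with quantile normalization), beside 32.6% and 19.8% of all genes. Mylip, which marks low-density lipoprotein receptors for degradation, was higher by 0.52 (SE 0.05, limma, adjusted p = 6.71e-06), and Srebf1 and Scap, of the sterol response machinery, by 0.76 and 0.39. Nr1h3, the liver X receptor alpha that switches on Apoe and Abca1, was lower, with 10.5 ± 1.20 TPM in polionotus and 19.7 ± 1.99 TPM in maniculatus libraries (SD, n = 6 each; -0.84, SE 0.08, adjusted p = 8.38e-06). The lipid transporter Abca7 was lower by -0.91 (SE 0.13, adjusted p = 0.000198). The alleles of both had the sign of the species difference, Nr1h3 by -4.76 (SE 0.29, edgeR, adjusted p = 2.89e-05) and Abca7 by -1.13 (SE 0.11, adjusted p = 0.000262). For Nr1h3 the allele value was far larger than the species value of -0.84. Srebf1 (1.22) and Scap (0.41) were also called higher on the polionotus allele, while Mylip (0.05) was not called. Abca2 was called with opposite signs, at 0.19 between species and -0.11 between alleles. In all, 8 of 22 were called higher and 7 lower on the polionotus allele, beside 34.2% and 21.5% of all genes.

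Of the genes for cholesterol synthesis and turnover, 5 of 19 were called higher and 6 lower between species (median 0.01; 4 and 8 with quantile normalization), beside 32.6% and 19.8% of all genes. Between alleles 5 of 16 were called higher and 6 lower, beside 34.2% and 21.5%. Fdft1 (0.35), Hmgcs1 (0.30) and Tm7sf2 (0.55), enzymes of the pathway, were higher in *P. polionotus*, and Sc5d (-0.36), Msmo1 (-0.31) and Nsdhl (-0.27) were lower. Over all genes, scaling moved the balance of calls from 4688 higher and 2841 lower to 3826 and 3857 with quantile normalization. The 5 tested apolipoproteins kept direction and call in the species mean under both scalings.

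Markers of cells that make these proteins were read beside them; the counts called are to be set against 32.6% higher and 19.8% lower over all genes. Astrocyte markers (14 genes) summed to 7277 to 8459.8 TPM in maniculatus and 6907 to 7903 TPM in polionotus brains, overlapping, with 2 called higher and 4 lower. Microglial markers (9 genes measured) summed to 224 to 299 and 319 to 378 TPM, without overlap, with 4 higher and 2 lower. Choroid plexus and ependymal markers summed to 1236 to 1563 and 1395 to 2153 TPM, with 1 of 11 higher and 4 lower, and oligodendrocyte markers to 2769.7 to 3666 and 2665 to 3041 TPM, with 3 of 12 higher and 4 lower. Meningeal fibroblast markers summed to 151 to 199 and 120 to 165 TPM, with 0 of 10 higher and 2 lower. The median log2 difference was 0.01 for the microglial markers, against 0.06 over all genes, so their separated sums do not show a shift of the whole list. Medians were 0.04 for astrocyte and -0.01 for choroid plexus and ependymal markers. For oligodendrocyte and for meningeal fibroblast markers the median was -0.04. The part of these cell types in the apolipoprotein differences was not tested.

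Liver and intestine, the main sources of Apoa1 and Apoa4 in the body, were also looked for. All 11 of their markers in the table, albumin (Alb) among them, averaged under 1 TPM, and their sum was 1.22 to 5.72 TPM in maniculatus and 1.56 to 2.47 TPM in polionotus libraries. In maniculatus control 2, where Apoa1 and Apoa4 peaked, the sum was 1.49 TPM. The highest sum, 5.72 TPM, was in maniculatus control 3, where Apoa4 stood at 7.84 TPM.

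Genes whose levels ran most like those of an apolipoprotein were ranked by the smaller of the Pearson correlations within each species (6 libraries each, genes of at least 5 TPM on average). For Apoe these were LOC102920993 (0.98 in both species), Ccdc85b and Rnaseh2c. For Clu they were Prkd3, the astrocyte enzyme gene Aldh1l1 (0.98 in maniculatus, 0.95 in polionotus libraries) and Vac14, and for Apod they were Ccdc142, Gps2 and Fam216a. Apoc1 ran most like Hic1, Sowaha and Pelo, Apoa1 most like Emc2, Tmem199 and Scoc, and Apoa4 most like Ap5s1, Magee2 and Tmem186. With about 10860 genes compared over 6 libraries per species, high values are frequent, and nothing is read from them.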

How the data were processed

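Parental values were deposited by the authors as TPM. Hybrid values were deposited by allele as integer counts, the smallest being 2. Reads were aligned with STAR 2.4.2a, per the submitters' processing notes; the sources used here do not give genome build, annotation, allele assignment or TPM method, so no coordinates are printed. A RefSeq table (HU_Pman_BW_mat_3.1, matching 84.7% and 85.1% of names) gave gene order only. A row naming no gene (0.789% to 2.48% of TPM) was left out. TPM keep no depth.

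log2(TPM + 1) of 14366 genes averaging at least 1 TPM was fitted with limma 3.58.1 (mean trend, 12 libraries, 4 groups). Summed hybrid counts were tested with edgeR 4.0.16 (TMM, filterByExpr, quasi-likelihood), and allele counts likewise with the animal as block, the sum of both alleles as library size and a mean of at least 20 counts. edgeR's SE was taken as the log2 value over the square root of F. DESeq2 1.42.0 was an alternative. Tests were two-sided, Benjamini-Hochberg adjusted over all genes, called below 0.05. The scripts were tested on simulated data. Named genes were the 6 members, up to 3 called genes per list and direction with the smallest p, 3 neighbours a side and 3 genes of most similar level; 1 gene so named is not reported here. Genes shown along the chromosome of Apod, and those around Clu beyond its 3 neighbours a side, were chosen after their values were seen. So were the remarks on single list genes beyond the naming rule. Members and lists were chosen with earlier results of these data known. Alternatives were other pseudocounts, filters, scalings and designs and leaving out libraries.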

Additional observations from a re-analysis of the deposited data

Results flagged for a closer look

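Of 20 sets of 6 libraries or animals examined for a value far from the rest, 4 had one, where chance flags about 1 in 20. Apoe in maniculatus control 3 (1631 TPM) lay below the other 5 maniculatus libraries, and Apoe in polionotus burrowing 3 (3099 TPM) below the other polionotus libraries. Apoa4 in maniculatus control 2 (22.3 TPM) lay above the others of its species. The polionotus share of Clu in F1 control 3 (44.3%) lay below those of the other hybrids.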

How the results depend on the processing

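In the species mean all 5 tested genes kept direction and call under all alternatives run, and Apoa4, untested, moved from -3.18 to -5.24 (pseudocount 0.1) and -1.52 (pseudocount 5). In the control trial 3 of 5 stayed called in a fit of only the 2 groups compared. Leaving out a library gave 3 to 5 of 5, with 3 without maniculatus control 2 or polionotus control 2. In the burrowing trial leaving out a library gave 3 to 5 of 5, with 3 without maniculatus burrowing 1 or 3 or polionotus burrowing 2 or 3. Clu in the burrowing trial was lost in 12 of 22 alternatives (adjusted p from 0.0504 to 0.142 in these). The cause was not tested. A minimum of 5 TPM removed Apoa1, so that alternative gave it no value.

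Replicate numbers were not taken to pair the samples. Deviations of same-numbered libraries correlated from -0.58 to 0.55, with 6 of 21 pairs over 0.1. Differently numbered libraries were not compared, so these values do not settle whether the numbers pair samples. With a replicate block all 5 stayed called in the species mean (Apoe 0.98), and Clu in the burrowing trial was 0.24 with an adjusted p of 0.0514. In the hybrids, with no replicate block for the animal, 1 of 4 genes (Apoc1) was called between alleles, with Apoe at -0.13 (adjusted p = 0.810) and Apod at 1.43 (0.117).

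Reversals touched only values that were not called: 28 when a library was left out and 13 otherwise. Leaving out a library, the maniculatus trial difference ran from -0.06 to 0.23 for Apoe, -0.21 to 0.02 for Apod, -0.03 to 0.08 for Clu, -0.26 to 0.38 for Apoa1, -0.61 to 0.10 for Apoa4 and -0.02 to 0.15 for Apoc1. In polionotus it ran from -0.23 to 0.11 for Apoe and -0.06 to 0.05 for Clu, the interaction from -0.21 to 0.03 for Apod and -0.09 to 0.04 for Clu, and the F1 trial difference of Apoc1 from -0.16 to 0.08. The allele by trial term ran from -0.03 to 0.02 for Apoe, -0.00 to 0.22 for Clu and -0.46 to 0.07 for Apoc1. Without the 3 libraries that stood apart, trial differences were -0.06 for Apoe and -0.02 for Apoc1 in maniculatus and 0.13 for Apoe and 0.00 for Clu in polionotus, and the Apoe interaction was 0.19. For Clu, quantile normalization and median scaling gave -0.00 and -0.01 in maniculatus, 0.03 and 0.02 in polionotus, and 0.03 and 0.04 for the interaction. With the own library size and TMM factor of each allele column, Clu was -0.15 and Apoe -0.32 between alleles. The allele by trial term of Apoe was then 0.04. TPM depth is unknown, and Apoc1 allele shares rest on few counts.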

Other observations

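Apold1, an endothelial gene named for its apolipoprotein L domain, also had widely separated allele shares. The polionotus allele held 47.8%, 38.5% and 96.9% of its counts in the control hybrids and 51.9%, 41.7% and 95.5% in the burrowing hybrids, on 23 to 211 counts per animal. Control 3 and burrowing 3 stood high, a different set of animals from those of Apod. Totals were 2.01, 2.06 and 3.64 CPM in control and 2.93, 7.28 and 2.98 in burrowing animals. The gene was singled out after its values were seen.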
